A study of Homo sapiens with 4 samples.

Results

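The genes described here are 35 genes of glycolysis and of the hypoxia response, found by Ensembl ID among the 60617 gene IDs measured in human bladder cancer cell lines treated with protodioscin. They comprise 19 glycolytic enzymes and enzyme isoforms, 3 transporters of glucose and lactate, the oxygen-regulated factor HIF1A and 12 targets of hypoxia-inducible factors (HIF) outside glycolysis. All 35 were in the table. RNA, prepared with a kit that selects poly(A) transcripts, was sequenced from 2 established lines of human urinary bladder carcinoma, T24 and 5637, both grown in RPMI medium with serum. The 4 groups were T24 with 60 µM protodioscin, untreated T24, 5637 with 70 µM protodioscin and untreated 5637, each represented by 1 library taken after 6 h. Protodioscin is a steroidal saponin of plants such as yam and fenugreek. Dose units were taken from the sample titles and differ from the protocol text, which has mM. The labels name no vehicle and state no oxygen tension.

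Glycolysis splits glucose into pyruvate in the cytosol, and most of its steps are run by enzymes encoded as several isoforms. Lactate dehydrogenase then turns pyruvate into lactate, which SLC16A3 exports. HIF1A protein is made continuously and is broken down in the presence of oxygen, after prolyl hydroxylases of the EGLN family mark it. Without oxygen it escapes this mark and, together with its partner ARNT, raises transcription of many glycolytic genes and of genes for blood vessel growth, acid balance, mitophagy and collagen folding. Bladder carcinomas, as many tumours, use glycolysis also in the presence of oxygen.

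Levels are given as FPKM, the number of sequenced fragments corrected for transcript length and library size. For a length of 1 kb, the step from 1 read to the next was 0.0172 to 0.0248 FPKM, which puts the depth at 1.29 times that of untreated T24 in treated T24, 1.19 times in treated 5637 and 1.43 times in untreated 5637. Transcripts of the mitochondrial genome held 3.39% of the FPKM sum in treated and 4.11% in untreated T24, and 10.6% in treated and 8.78% in untreated 5637. Of 12 epithelial and urothelial markers, 8 reached 1 FPKM in both T24 libraries and 12 in both 5637 libraries. In T24, KRT5, KRT6A, TP63 and CDH1 were at or near 0. Of the 5 leukocyte markers none reached 1 FPKM in any library, and the highest was at 0.853 FPKM. Of the endothelial and fibroblast markers, only CDH5 in untreated T24 (1.57 FPKM) and COL1A1 in treated (7.52 FPKM) and untreated 5637 (6.81 FPKM) did. Of 6 mesenchymal markers, 5 reached 1 FPKM in each library. TWIST1 was at 0 in both T24 libraries, and ZEB1 was below 1 FPKM in both 5637 libraries. FN1 was at 1419 FPKM in treated and 1530 FPKM in untreated T24, and at 191 FPKM in treated and 235 FPKM in untreated 5637. CDH2 and ZEB1 also had higher values in T24, whereas VIM, SNAI2 and TWIST1 had higher values in 5637. The summed level of the epithelial markers was 2089.7 FPKM in treated and 2641 FPKM in untreated T24, and 4527 FPKM in treated and 5361 FPKM in untreated 5637, and its part in the differences below was not tested. In such bulk libraries, fewer cells with a transcript and less of it per cell cannot be told apart. With 1 library a group, a difference within a line carries no replicate error and no test.

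The HIF proteins bind a short core sequence, written here as ACGTG, in the control regions of their targets. It was searched for on both strands of the 250 bases before each RefSeq gene start (GRCh38.p14), together with the related core GCGTG. The first was present in 18.5% of all 35116 windows and in 22 of the 58 windows (37.9%) of the 31 genes described here that had an entry. The second was present in 32.2% of all windows and in 17 of those 58 (29.3%). Among genes with a single window, ACGTG was present in 10 of 20 of the genes described here and in 18.4% of 22114 genes. VEGFA, NDRG1, BNIP3L and SLC2A3 had no entry. The stretches below are the 250 bases before the start of 8 genes, chosen because 6 of them form isoform pairs that the results set side by side, because CA9 was nearly silent, and because ANKRD37 had one of the larger differences with treatment. Where a gene has several starts, the stretch before the first one is shown, and capitals mark ACGTG or its reverse complement CACGT, which overlap where CACGTG is read.
LDHA: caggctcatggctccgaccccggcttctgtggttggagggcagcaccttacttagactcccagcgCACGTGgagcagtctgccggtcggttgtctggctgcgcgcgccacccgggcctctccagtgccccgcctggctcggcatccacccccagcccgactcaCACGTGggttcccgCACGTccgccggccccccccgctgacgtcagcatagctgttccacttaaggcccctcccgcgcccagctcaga
LDHB: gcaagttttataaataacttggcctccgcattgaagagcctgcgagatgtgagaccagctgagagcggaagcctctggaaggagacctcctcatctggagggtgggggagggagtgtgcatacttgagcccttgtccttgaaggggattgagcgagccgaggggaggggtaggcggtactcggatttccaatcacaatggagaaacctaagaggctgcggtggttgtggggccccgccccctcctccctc
ALDOC: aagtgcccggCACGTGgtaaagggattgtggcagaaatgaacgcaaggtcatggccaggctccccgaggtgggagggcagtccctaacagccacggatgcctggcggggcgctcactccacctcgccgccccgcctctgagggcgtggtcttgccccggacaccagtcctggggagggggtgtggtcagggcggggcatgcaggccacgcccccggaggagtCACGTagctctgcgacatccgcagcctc
ALDOA: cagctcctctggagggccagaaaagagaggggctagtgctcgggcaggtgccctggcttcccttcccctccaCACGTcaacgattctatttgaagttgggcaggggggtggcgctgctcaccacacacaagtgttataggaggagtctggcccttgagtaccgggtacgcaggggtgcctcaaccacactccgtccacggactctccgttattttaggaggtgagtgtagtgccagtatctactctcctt
P4HA1: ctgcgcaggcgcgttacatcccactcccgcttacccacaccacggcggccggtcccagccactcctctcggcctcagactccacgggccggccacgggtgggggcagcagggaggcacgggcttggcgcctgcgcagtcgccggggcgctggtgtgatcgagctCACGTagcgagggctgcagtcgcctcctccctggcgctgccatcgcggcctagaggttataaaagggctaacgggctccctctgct
P4HA2: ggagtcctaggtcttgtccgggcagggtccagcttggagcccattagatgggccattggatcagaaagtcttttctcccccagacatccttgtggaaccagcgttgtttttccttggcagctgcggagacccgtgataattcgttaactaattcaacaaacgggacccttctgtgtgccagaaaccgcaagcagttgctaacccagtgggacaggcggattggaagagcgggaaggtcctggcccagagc
CA9: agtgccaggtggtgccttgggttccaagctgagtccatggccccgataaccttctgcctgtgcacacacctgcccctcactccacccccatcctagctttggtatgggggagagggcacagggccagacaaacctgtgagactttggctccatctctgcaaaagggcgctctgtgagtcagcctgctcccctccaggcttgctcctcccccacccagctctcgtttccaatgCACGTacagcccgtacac
ANKRD37: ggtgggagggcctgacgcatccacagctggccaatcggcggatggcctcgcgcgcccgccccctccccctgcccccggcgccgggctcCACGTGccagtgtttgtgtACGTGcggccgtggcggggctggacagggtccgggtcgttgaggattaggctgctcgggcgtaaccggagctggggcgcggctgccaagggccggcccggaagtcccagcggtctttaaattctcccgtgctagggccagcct
In these stretches the core was read 5 times in LDHA and not in its sister gene LDHB, 3 times in ALDOC and 1 time in ALDOA, and 1 time in P4HA1 and not in P4HA2. Of pairs not shown, ACGTG was present in some window of EGLN1, PFKFB3, HK2 and ENO2. It was in no window of EGLN3, PFKFB4, HK1 and ENO1. CA9 held 1 match, 18 bases before its start, and ANKRD37 held 3. In these counts a CACGTG, present in LDHA, ALDOC and ANKRD37, was read once on each strand, so matches outnumber separate sites there. The stretches lie at chr11:18394313-18394562 (plus strand), chr12:21657843-21658092 (minus strand), chr17:28576896-28577145 (minus strand), chr16:30064029-30064278 (plus strand), chr10:73096867-73097116 (minus strand), chr5:132227092-132227341 (minus strand), chr9:35673678-35673927 (plus strand) and chr4:185396591-185396840 (plus strand). A match describes letters only and is no evidence of binding in these cells.

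HIF1A was expressed in both lines at levels that lay close together with and without treatment. The gene (ENSG00000100644, GRCh38 chromosome 14, 61695513 to 61748259) stood at 93.4 FPKM in treated and 95.9 FPKM in untreated T24, and at 80.7 FPKM in treated and 88.0 FPKM in untreated 5637. The differences between treated and untreated cells on the log2(FPKM + 1) scale, used for all differences below, were -0.039 in T24 and -0.12 in 5637. HIF1A is regulated mainly at the level of its protein, which RNA libraries do not measure.

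Of the hydroxylases that sense oxygen, EGLN1 stood far above EGLN3. EGLN1, the main HIF prolyl hydroxylase in most cells, was at 9.04 FPKM in treated and 9.93 FPKM in untreated T24, and at 7.96 FPKM in treated and 7.18 FPKM in untreated 5637. EGLN3, a hydroxylase that hypoxia strongly induces, was at 0.0612 FPKM in treated and 0.0552 FPKM in untreated T24, and at 0.377 FPKM in treated and 0.237 FPKM in untreated 5637. EGLN1 thus held 95.5% or more of the summed FPKM of the pair in every library. The further hydroxylase EGLN2, which is not among the 35, was at 17.1 FPKM in treated and 18.1 FPKM in untreated T24, and at 22.3 FPKM in treated and 26.8 FPKM in untreated 5637, above EGLN1 in all 4 libraries.

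Among the secreted and cell-surface HIF targets, VEGFA was at a lower level in the treated library of both lines, whereas CA9 was close to 0 in all. VEGFA, the growth factor of blood vessels (ENSG00000112715, chromosome 6, 43770184 to 43786487), was at 19.9 FPKM in treated and 24.2 FPKM in untreated T24, and at 17.2 FPKM in treated and 22.1 FPKM in untreated 5637. Both treated libraries were below both untreated ones, with differences of -0.27 in T24 and -0.34 in 5637. ADM encodes the vasodilator peptide adrenomedullin. It was at 13.9 FPKM in treated and 16.9 FPKM in untreated T24, and at 13.6 FPKM in treated and 13.2 FPKM in untreated 5637, a difference of -0.26 in T24 and of 0.037 in 5637. CA9, the membrane carbonic anhydrase that many hypoxic tumours carry, was at 0.226 FPKM in treated and 0.269 FPKM in untreated T24, and at 0.295 FPKM in treated and 0.207 FPKM in untreated 5637. Those levels come from about 18 to 24 reads a library, and ARHGEF39, which shares exons with CA9 on the opposite strand, was at 5.38 to 6.89 FPKM. Reads of such a pair cannot be told apart in libraries that do not mark strand.

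BNIP3L and ANKRD37 were at higher levels in the treated library of both lines. BNIP3 and BNIP3L (also called NIX) are receptors on the outer mitochondrial membrane that mark mitochondria for mitophagy. BNIP3L (ENSG00000104765, chromosome 8, 26382898 to 26505636) was at 17.0 FPKM in treated and 14.0 FPKM in untreated T24, and at 26.4 FPKM in treated and 18.6 FPKM in untreated 5637. Its difference was 0.27 in T24 and 0.48 in 5637, the largest of the 35 genes in that line. BNIP3 was at 10.8 FPKM in treated and 10.2 FPKM in untreated T24, and at 4.74 FPKM in treated and 4.77 FPKM in untreated 5637, with differences of 0.07 and -0.0072. ANKRD37, a small ankyrin-repeat protein (chromosome 4, 185396021 to 185400628), was at 1.09 FPKM in treated and 0.641 FPKM in untreated T24, and at 1.15 FPKM in treated and 0.794 FPKM in untreated 5637. Both treated libraries were above both untreated ones, at differences of 0.35 in T24 and 0.26 in 5637. UFSP2, which shares exons with ANKRD37 on the opposite strand, was at 7.24 FPKM in treated and 6.41 FPKM in untreated T24, and at 8.80 FPKM in treated and 7.75 FPKM in untreated 5637, and its part in the ANKRD37 values was not tested.

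For the other HIF targets, NDRG1 in T24 had the value farthest from 0. NDRG1, a cytosolic protein induced by stress and hypoxia, was at 6.72 FPKM in treated and 5.47 FPKM in untreated T24, and at 22.5 FPKM in treated and 21.2 FPKM in untreated 5637. It differed by 0.25 in T24 and by 0.082 in 5637. PDK1, the kinase that switches off pyruvate dehydrogenase and so limits the conversion of pyruvate to acetyl-CoA, was at 1.42 FPKM in treated and 1.52 FPKM in untreated T24, and at 2.14 FPKM in treated and 1.92 FPKM in untreated 5637. P4HA1 and P4HA2 are catalytic subunits of the enzyme that hydroxylates proline in collagen. P4HA1 was at 24.9 FPKM in treated and 23.2 FPKM in untreated T24, and at 10.8 FPKM in treated and 9.93 FPKM in untreated 5637, and P4HA2 was at 18.0 FPKM in treated and 15.7 FPKM in untreated T24, and at 35.3 FPKM in treated and 33.7 FPKM in untreated 5637. The differences of PDK1 and the 2 collagen enzymes lay between -0.060 and 0.18 in both lines.

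**Figure D1:**
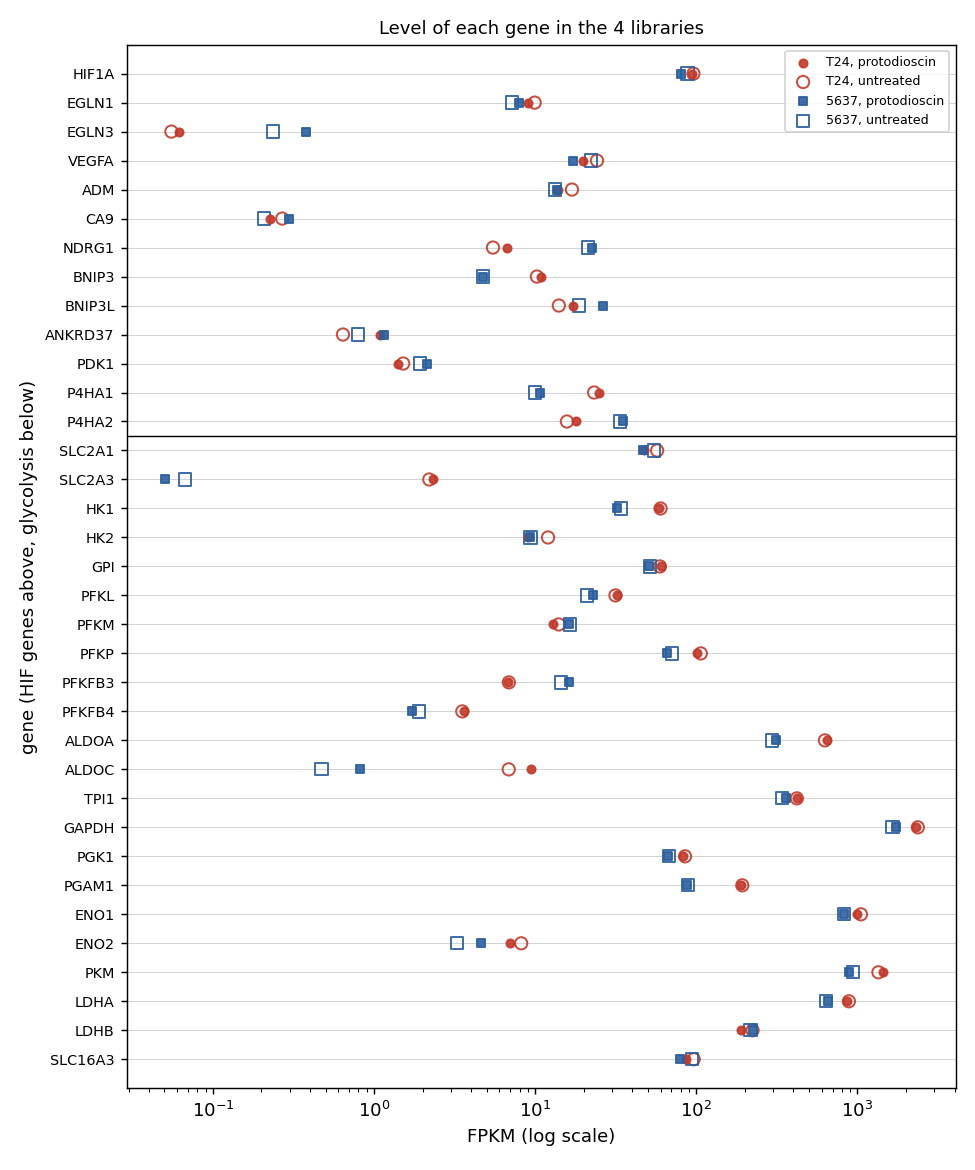
FPKM of the 35 genes on a log axis, with HIF1A and HIF targets above the line and glycolytic genes in pathway order below it, in treated (filled) and untreated (open) libraries of T24 (circles) and 5637 (squares). Glycolytic enzymes reach up to 2369.6 FPKM, HIF targets outside glycolysis lie at or below 35.3 FPKM, and symbols of the same line mostly overlap.

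Of the glucose transporters, SLC2A1 (GLUT1) had the higher level in all 4 libraries. SLC2A1 (ENSG00000117394, chromosome 1, 42925375 to 42959176) was at 47.6 FPKM in treated and 57.1 FPKM in untreated T24, and at 46.9 FPKM in treated and 54.3 FPKM in untreated 5637. SLC2A3 (GLUT3), a transporter of higher affinity, was at 2.31 FPKM in treated and 2.20 FPKM in untreated T24, and at 0.0505 FPKM in treated and 0.0668 FPKM in untreated 5637. The lactate exporter SLC16A3 (MCT4) was at 86.3 FPKM in treated and 96.3 FPKM in untreated T24, and at 78.7 FPKM in treated and 93.6 FPKM in untreated 5637. SLC2A1 and SLC16A3 were lower in the treated library of both lines, SLC2A1 by differences of -0.26 in T24 and -0.21 in 5637, and SLC16A3 by -0.16 and -0.25. For both genes the treated libraries lay below the untreated libraries without overlap. CSNK1D, which shares exons with SLC16A3 on the opposite strand, was at 47.8 to 52.4 FPKM over the 4 libraries.

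The first enzymes of glycolysis trap and commit the sugar. Hexokinase phosphorylates glucose: HK1, the form found in most tissues, was at 58.9 FPKM in treated and 60.0 FPKM in untreated T24, and at 32.0 FPKM in treated and 34.1 FPKM in untreated 5637. HK2, the inducible form often raised in tumours, was at 8.99 FPKM in treated and 12.01 FPKM in untreated T24, and at 9.31 FPKM in treated and 9.35 FPKM in untreated 5637. In T24 the difference of HK2 was -0.38, the lowest of the 35 genes in that line, and in 5637 it was -0.0057. GPI, which turns glucose 6-phosphate into fructose 6-phosphate, was at 60.5 FPKM in treated and 59.5 FPKM in untreated T24, and at 50.9 FPKM in treated and 51.7 FPKM in untreated 5637.

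Phosphofructokinase carries out the committed step, and its platelet form PFKP led in both lines. PFKP was at 100.4 FPKM in treated and 107 FPKM in untreated T24, and at 65.8 FPKM in treated and 70.7 FPKM in untreated 5637. The liver form PFKL was at 32.3 FPKM in treated and 31.5 FPKM in untreated T24, and at 22.9 FPKM in treated and 20.9 FPKM in untreated 5637. The muscle form PFKM was at 12.8 FPKM in treated and 14.0 FPKM in untreated T24, and at 16.2 FPKM in treated and 16.4 FPKM in untreated 5637. PFKFB3 and PFKFB4 make and break fructose 2,6-bisphosphate, the activator of phosphofructokinase. PFKFB3 was at 6.80 FPKM in treated and 6.86 FPKM in untreated T24, and at 16.2 FPKM in treated and 14.5 FPKM in untreated 5637, and PFKFB4 was at 3.64 FPKM in treated and 3.53 FPKM in untreated T24, and at 1.72 FPKM in treated and 1.91 FPKM in untreated 5637. UCN2, which shares exons with PFKFB4 on the same strand, was at 4.51 FPKM in treated and 6.17 FPKM in untreated T24, and at 1.92 FPKM in treated and 2.61 FPKM in untreated 5637, so that the split of reads between these neighbours is an estimate. The differences of the 5 genes between treated and untreated cells lay between -0.11, for PFKM in T24, and 0.15, for PFKFB3 in 5637.

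The middle steps were run by abundant transcripts, with little difference by treatment outside ALDOC. ALDOA, the aldolase of most tissues (chromosome 16, 30064164 to 30070457), was at 645 FPKM in treated and 628 FPKM in untreated T24, and at 313 FPKM in treated and 296 FPKM in untreated 5637. ALDOC, an aldolase best known from brain (ENSG00000109107, chromosome 17, 28573115 to 28577264), was at 9.41 FPKM in treated and 6.85 FPKM in untreated T24, and at 0.819 FPKM in treated and 0.471 FPKM in untreated 5637. The difference of ALDOC was 0.41 in T24, the highest of the 35 genes in that line, and 0.31 in 5637, where it stayed below 1 FPKM in both libraries. TPI1, which interconverts the products of aldolase, was at 419 FPKM in treated and 421 FPKM in untreated T24, and at 361 FPKM in treated and 338 FPKM in untreated 5637. GAPDH, the oxidation step and a common loading control, was at 2317 FPKM in treated and 2369.6 FPKM in untreated T24, and at 1729 FPKM in treated and 1652 FPKM in untreated 5637. GAPDH had rank 4 among all genes in both T24 libraries and rank 13 in both 5637 libraries. PGK1, the first step that yields ATP, was at 83.2 FPKM in treated and 85.1 FPKM in untreated T24, and at 66.3 FPKM in treated and 67.4 FPKM in untreated 5637.

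In the last steps, the values of treated and untreated cells were close except in ENO2 and, in T24, in LDHB. PGAM1, phosphoglycerate mutase, was at 189.9 FPKM in treated and 193 FPKM in untreated T24, and at 87.2 FPKM in treated and 89.0 FPKM in untreated 5637. The main enolase ENO1 was at 989 FPKM in treated and 1051 FPKM in untreated T24, and at 819.9 FPKM in treated and 825 FPKM in untreated 5637. ENO2, the enolase of neurons and neuroendocrine cells, was at 6.99 FPKM in treated and 8.19 FPKM in untreated T24, and at 4.59 FPKM in treated and 3.25 FPKM in untreated 5637. ENO2 was lower in treated T24 (-0.20) and higher in treated 5637 (0.39), a contrast that a single library a group does not allow to be tested. The difference in 5637 was 0.22 with 5 added before the logarithm. PKM, pyruvate kinase, was at 1445 FPKM in treated and 1348 FPKM in untreated T24, and at 891 FPKM in treated and 934 FPKM in untreated 5637. With quantile scaling its difference in T24 was 0.33, against 0.10 as deposited. Its splice forms, PKM1 and PKM2, are not separated in gene-level values. LDHA, the lactate dehydrogenase subunit that HIF induces, was at 865 FPKM in treated and 884 FPKM in untreated T24, and at 659.9 FPKM in treated and 637 FPKM in untreated 5637. LDHB, the subunit that prevails in heart, was at 189 FPKM in treated and 223 FPKM in untreated T24, and at 223 FPKM in treated and 217 FPKM in untreated 5637. LDHB differed by -0.24 in T24 and by 0.04 in 5637.

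Treatment with protodioscin was set against no treatment in each line and over both lines. Within T24, 33 of the 35 genes were at 1 FPKM or above in the treated or the untreated library and were compared. Of these, 13 were above 0 and 20 below 0, against 56% above 0 among all 12193 genes compared. Their median difference was -0.025, against 0.025 for all genes. Within 5637, 31 were compared, 16 above 0 and 15 below 0, against 61.5% above 0 among 12635 genes, with a median of 0.037 against 0.043. No gene of the 35 differed by 0.5 or more in either line, a size reached by 3.26% of all genes in T24 and by 2.12% in 5637. In T24, 4 of 33 were at 0.25 or more, against 8% of all genes, and 4 at -0.25 or less, against 8.58%. The 4 at the upper end were ALDOC, ANKRD37, BNIP3L and NDRG1, and the 4 at the lower end were HK2, VEGFA, ADM and SLC2A1. In 5637, 3 of 31 were at 0.25 or more, against 9.31%, and 1 at -0.25 or less, against 6.4%. They were BNIP3L, ENO2 and ANKRD37 at the upper end and VEGFA at the lower. In either direction this makes 8 of 33 in T24, against 16.6%, and 4 of 31 in 5637, against 15.7%.

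As a description, the differences of the enzymes lay closer to 0 than those of the HIF targets outside glycolysis. Of all genes compared, 56% were above 0 in T24 and 61.5% in 5637, with medians of 0.025 and 0.043. Among the enzymes, 6 of 19 were above 0 in T24 and 8 of 18 in 5637, with medians of -0.025 and -0.0075. Their median absolute difference was 0.037 in T24 and 0.067 in 5637, against 0.112 and 0.109 for all genes. Among the HIF targets outside glycolysis, 6 of 10 were above 0 in T24 and 8 of 10 in 5637, with medians of 0.082 and 0.093. Their median absolute difference was 0.218 in T24 and 0.106 in 5637. In further genes of both kinds, described below, the values lay closer together. There the median absolute difference was 0.105 in T24 and 0.120 in 5637 for HIF targets, and 0.103 and 0.098 for glycolysis and pyruvate genes. The median level of the enzymes was 65.8 to 85.1 FPKM over the libraries, against 8.56 to 10.1 FPKM for the HIF targets. The part of level in the contrast was not tested. EGLN3 and CA9 stayed below 1 FPKM in all 4 libraries and were not compared. No test was made between these groups, since genes of one pathway are not independent replicates. The relative depth and the mitochondrial share moved with treatment in opposite directions in the lines, T24 deeper and lower in mitochondrial transcripts when treated, and 5637 shallower and higher, and their part in these differences was not tested.

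Over both lines, limma called 0 of 12893 genes for treatment at an adjusted p below 0.05 (0% of genes), among them 0 of the 33 genes tested here. Its fit has cell line and treatment as terms and 1 residual degree of freedom. At an unadjusted p below 0.05 it gave 1227 genes (9.52%), and 6 of the 33. Of these, BNIP3L had a coefficient of 0.37 (SE 0.0823), ALDOC of 0.36 (SE 0.104) and ANKRD37 of 0.30 (SE 0.109). VEGFA had a coefficient of -0.31 (SE 0.0696), SLC2A1 of -0.23 (SE 0.0608) and SLC16A3 of -0.20 (SE 0.0609). The limma adjusted p lay between 0.482 for BNIP3L, VEGFA and SLC2A1 and 0.505 for ANKRD37, so that none of the 6 passed the correction. Each had the same sign in both lines, but a low p in this fit favours genes that respond alike, so this adds no support. The low level of ALDOC and ANKRD37 makes their values depend on the constant added before the logarithm. In T24, ANKRD37 was at 0.68 with 0.1 added and at 0.11 with 5 added. Whether the libraries stem from separate cultures is not said in the labels. The SEs and p-values rest on that difference between the lines and on the prior variance that limma takes from all genes.

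**Figure D2:**
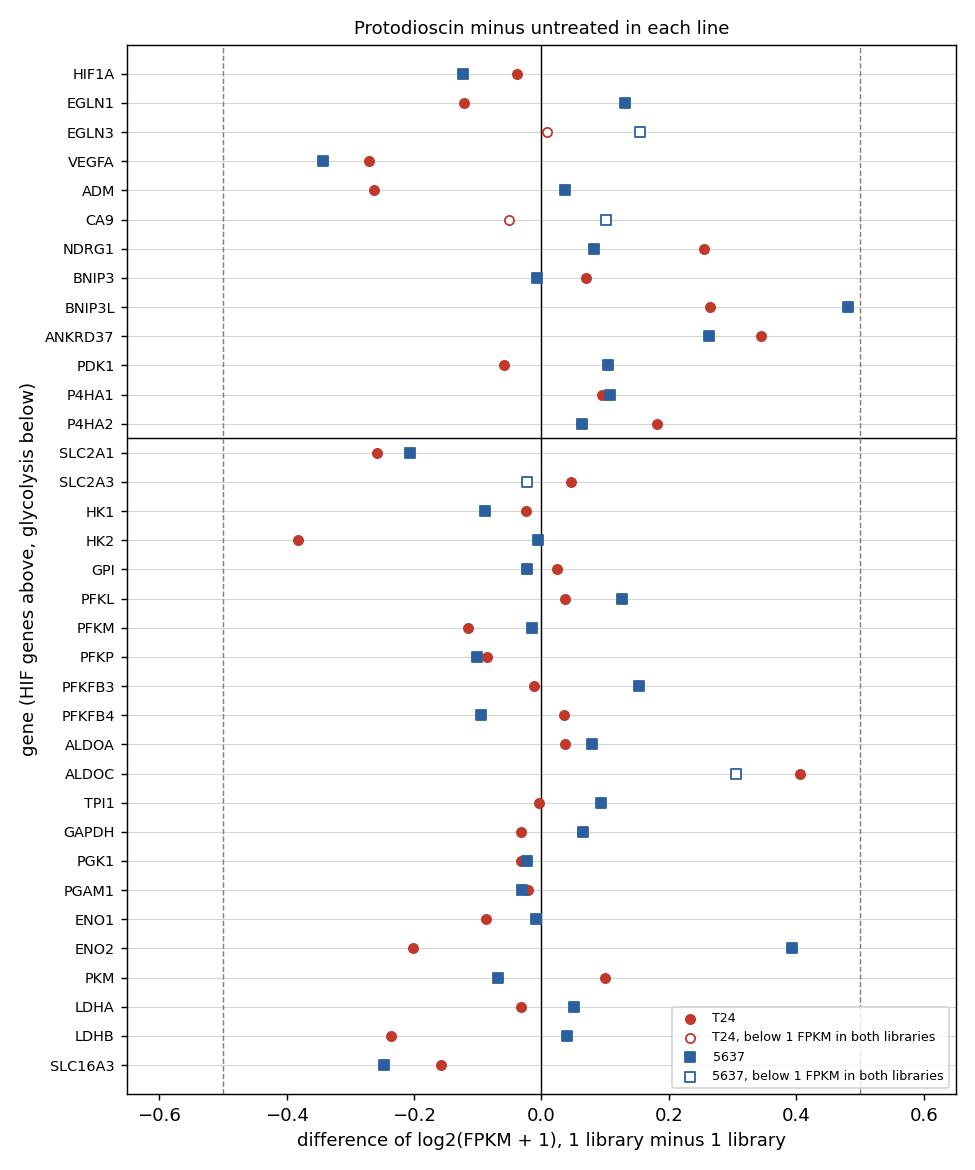
Difference of log2(FPKM + 1) between the treated and the untreated library of T24 (circles) and 5637 (squares) for the 35 genes, with open symbols where both libraries of the line were below 1 FPKM and dashed lines at -0.5 and 0.5. All symbols lie inside the dashed lines, and the glycolytic enzymes cluster near 0 more closely than the HIF targets.

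Direction was shared by the lines about as often as among all genes. Of the 31 genes compared in both lines, 7 were above 0 in both, 11 below 0 in both and 13 had opposite signs, so that 58.1% shared a direction, against 59% of the 11417 genes compared in both lines. Those above 0 in both were BNIP3L, ANKRD37, NDRG1, P4HA1 and P4HA2 among the HIF targets and PFKL and ALDOA among the enzymes. Those below 0 in both were VEGFA, HIF1A, SLC2A1, SLC16A3 and the enzymes HK1, HK2, PFKM, PFKP, PGK1, PGAM1 and ENO1. With quantile scaling, PGAM1 and ENO1 were not below 0 in both lines (ENO1 was at 0.13 in T24), whereas the other 9 stayed below 0 and all 7 above 0 with TPM, median-ratio and quantile scaling.

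T24 and 5637 were set against each other over both treatments. Most glycolytic enzymes were higher in T24: limma called 15 of 19 higher and 2 lower at an adjusted p below 0.05. ALDOC and SLC2A3 entered the fit only through the T24 libraries, where they are high, and had to differ. Without genes that reached 1 FPKM in both libraries of 1 line and in neither of the other, 14 of 18 enzymes were called higher and 2 lower, and 18 and 5 of 31 genes of the 35, against 65.2% of 11417 genes called in either direction. Over all 33 genes tested, 20 were called higher in T24 and 5 lower, against 35.1% of all genes called higher and 33.9% called lower, 68.9% in all. Without the filter on low values, 12 of the 35 were called higher and 5 lower, against 3862 and 4342 of all 27829 genes. GAPDH, ENO1, LDHA, TPI1, GPI, ENO2, PFKM and EGLN1 were among those of the 35 no longer called. Without the genes that entered through 1 line only, the median coefficient of T24 minus 5637 was 0.45 for the enzymes and 0.038 for all genes. The 2 libraries of a line, treated and untreated, served as its replicates in this fit, which takes out the mean effect of treatment. Its error is again the difference between the treatment responses of the lines, since no group had a second library. Mitochondrial transcripts took a larger part of the 5637 libraries. Without them, the 19 enzymes held 2.39% of the FPKM sum in treated and 2.41% in untreated T24, and 1.72% in treated and 1.71% in untreated 5637, and with them 2.31% and 2.31% in treated and untreated T24 and 1.54% and 1.56% in treated and untreated 5637.

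With 1 added before the logarithm, ALDOC had a coefficient of 2.47, given as a description because of how it entered the fit. It was 3.49 with 0.1 added and 1.21 with 5 added. Among the enzymes expressed in both lines, limma called the following. ALDOA was higher in T24 by 1.06 (SE 0.0624, adjusted p = 3.44e-05) in limma. PGAM1 had a limma coefficient of 1.11 (SE 0.0578, adjusted p = 2.15e-05) and HK1 of 0.83 (SE 0.0621, adjusted p = 8.65e-05). PKM was higher in T24 by 0.61 (SE 0.077, adjusted p = 0.000707) and GAPDH by 0.47 (SE 0.0776, adjusted p = 0.00229), again with limma. For each of these genes, both T24 libraries lay above both 5637 libraries. PFKL, PFKP, PFKFB4, ENO2, LDHA, PGK1, ENO1, TPI1 and GPI were called higher in T24 as well, with limma coefficients of 0.22 for GPI to 0.81 for ENO2. The coefficient of ENO2 was 0.50 and that of PFKFB4 0.33 with 5 added before the logarithm, against 0.81 and 0.70 with 1 added.

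The enzymes called lower in T24 were PFKFB3, with a limma coefficient of -1.06 (SE 0.0867, adjusted p = 0.000121), and PFKM, with -0.27 (SE 0.0758, adjusted p = 0.0209). The enzymes not called in limma were HK2, at 0.14 with an adjusted p of 0.292, and LDHB, at -0.10 with an adjusted p of 0.321. Their T24 and 5637 values overlapped.

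The transporters showed a near equal SLC2A1 and SLC16A3 in both lines beside an unequal SLC2A3. SLC2A3 was below 0.1 FPKM in both 5637 libraries and entered the fit only through T24. Its coefficient, as a description, was 1.62 with 1 added before the logarithm, 3.89 with 0.1 added and 0.52 with 5 added. The limma coefficient was 0.046 for SLC2A1 (adjusted p = 0.528) and 0.086 for SLC16A3 (adjusted p = 0.249). SLC2A1 made up 95.4% or more of the summed FPKM of SLC2A1 and SLC2A3 in every library. SLC2A6, which is not in this sum, was above SLC2A3 in every library. It was at 8.63 FPKM in treated and 10.3 FPKM in untreated T24, and at 7.26 FPKM in treated and 9.07 FPKM in untreated 5637.

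**Figure D3:**
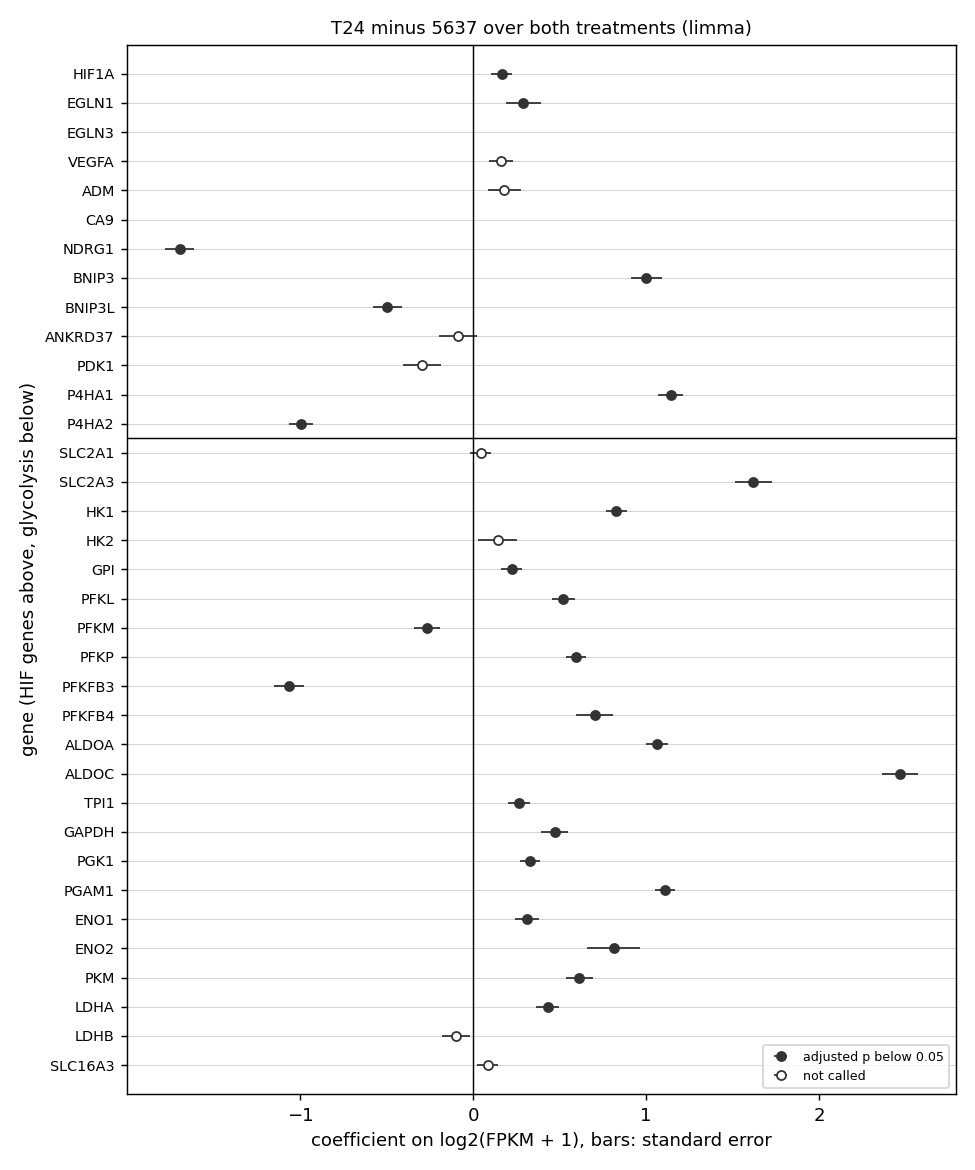
Limma coefficient of T24 minus 5637 on log2(FPKM + 1) with its standard error as bars, filled where the adjusted p was below 0.05; EGLN3 and CA9 were below the filter and have no symbol. ALDOC (2.47) and SLC2A3 (1.62) entered the fit only through T24; enzymes lie mostly to the right, whereas HIF targets outside glycolysis lie on both sides, from -1.69 for NDRG1 to 1.14 for P4HA1.

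The HIF targets outside glycolysis were higher in T24 in some cases and lower in others. Of the 10 tested, limma called 3 higher in T24, 3 lower and 4 neither, with a median coefficient of 0.037. That share is near the 68.9% of all genes called, and is no result about these targets. NDRG1 was lower in T24, with a limma coefficient of -1.69 (SE 0.0849, adjusted p = 1.9e-05), as was BNIP3L, with -0.49 (SE 0.0823, adjusted p = 0.0024). P4HA1 was higher in T24, with a limma coefficient of 1.14 (SE 0.0719, adjusted p = 4.44e-05), and P4HA2 lower, with -0.99 (SE 0.0704, adjusted p = 6.97e-05), so that the collagen hydroxylase pair lay on opposite sides. BNIP3 was higher in T24 by 1.002 (SE 0.0889, adjusted p = 0.000169) and EGLN1 by 0.29 (SE 0.0985, adjusted p = 0.038), both from limma. VEGFA, ADM, ANKRD37 and PDK1 were not called in limma, at adjusted p-values of 0.0815, 0.137, 0.499 and 0.0532. HIF1A was called at 0.17 (SE 0.0606, adjusted p = 0.0497) in limma, and this call was kept in 3 of 9 other settings.

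In several isoform pairs, shares were further apart between the lines than between treated and untreated cells of a line. P4HA1 made up 58.0% in treated and 59.6% in untreated T24, and 23.4% in treated and 22.7% in untreated 5637, of the summed FPKM of P4HA1 and P4HA2. BNIP3 made up 38.8% in treated and 42.2% in untreated T24, and 15.2% in treated and 20.4% in untreated 5637, of BNIP3 and BNIP3L together. PFKFB4 made up 34.9% in treated and 33.9% in untreated T24, and 9.60% in treated and 11.6% in untreated 5637, of PFKFB3 and PFKFB4 together. PFKFB2, left out of this sum, was at 2.24 FPKM in treated and 2.54 FPKM in untreated T24. In 5637 it was at 3.58 FPKM in treated and 3.13 FPKM in untreated cells, above PFKFB4. In each of these 3 pairs both T24 libraries lay above both 5637 libraries. No such count was made over other gene pairs, and 68.9% of all genes tested were called between the lines. The separation is thus no result about these pairs.

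Of HK1 and HK2 together, HK2 held a share of 13.2% in treated and 16.7% in untreated T24, and 22.5% in treated and 21.5% in untreated 5637. LDHB held 18.0% in treated and 20.2% in untreated T24, and 25.3% in treated and 25.4% in untreated 5637, of lactate dehydrogenase transcripts. PFKM held 8.83% in treated and 9.20% in untreated T24, and 15.5% in treated and 15.2% in untreated 5637, of the phosphofructokinase transcripts. All 3 shares were smaller in both T24 libraries than in both 5637 libraries, again with no count over other gene families beside them. The minor isoforms ALDOC and ENO2 made up at most 1.44% of ALDOA and ALDOC and 0.773% of ENO1 and ENO2 in any library. HKDC1, at 1.74 FPKM in treated and 2.33 FPKM in untreated 5637, was left out of the hexokinase sum. ENO3, at 3.23 FPKM in treated and 4.27 FPKM in untreated T24, was left out of the enolase sum. No interval is given for these shares, because FPKM values hold no counts.

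**Figure D4:**
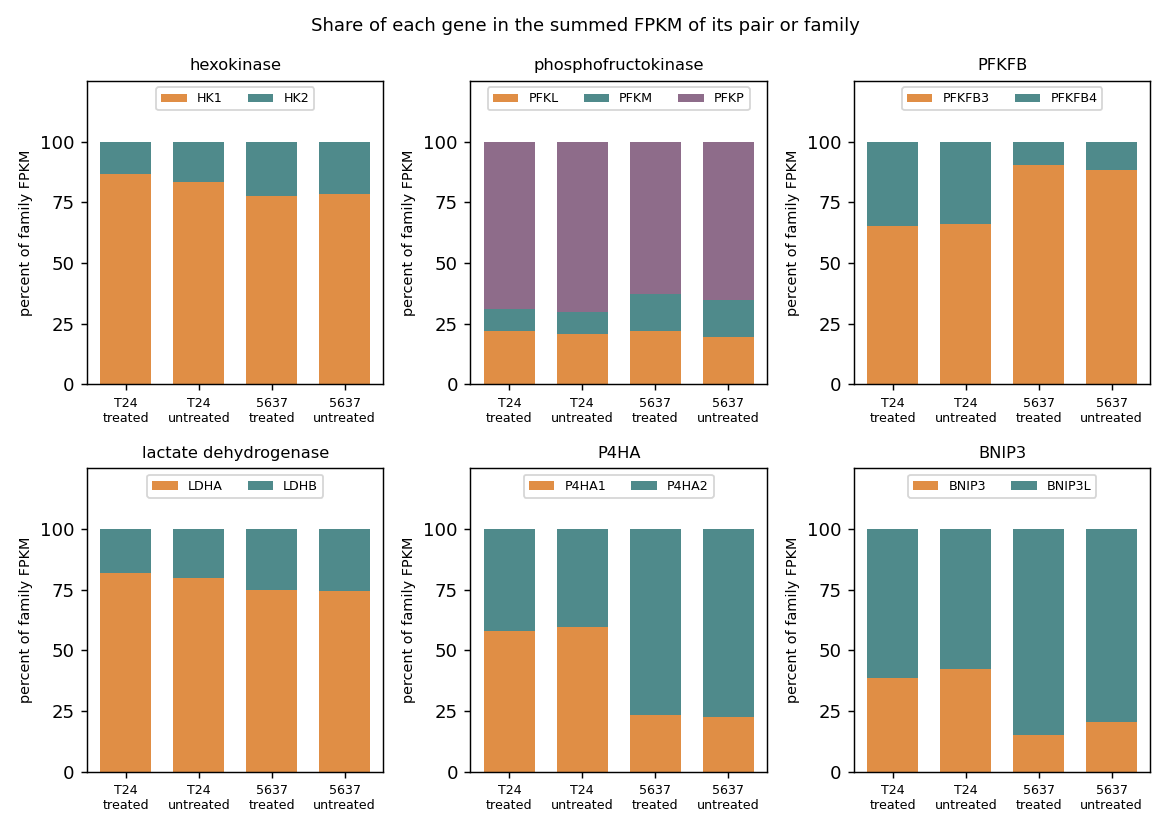
Percent of the summed FPKM of 6 isoform pairs or families held by each gene, as stacked bars for treated and untreated T24 and treated and untreated 5637. P4HA1 takes 58.0% and 59.6% in treated and untreated T24 but 23.4% and 22.7% in treated and untreated 5637, while bars of the same line are alike.

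Other genes of the same pathways were counted from lists that were not part of the 35. Of 25 further HIF targets, 24 were compared in T24 and 22 in 5637, with 14 above 0 in each line and medians of 0.040 and 0.034. Of 32 further genes of glycolysis and pyruvate metabolism, 9 of 16 compared were above 0 in T24 and 13 of 19 in 5637, with medians of 0.049 and 0.054. Of 7 further HIF pathway components, 3 of 5 were above 0 in T24 and 4 of 6 in 5637. For comparison, 56% of all genes compared were above 0 in T24 and 61.5% in 5637. None of the genes in these 3 lists differed by 0.5 or more with treatment in either line, against 3.26% of all genes in T24 and 2.12% in 5637. Limma called none of them for treatment, and 0 of all 12893 genes.

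Between the lines, the further lists held several called genes. VHL, the ubiquitin ligase subunit that recognises hydroxylated HIF, was at 13.8 FPKM in treated and 13.1 FPKM in untreated T24, and at 69.0 FPKM in treated and 65.3 FPKM in untreated 5637, a limma coefficient of -2.24 (SE 0.0637, adjusted p = 2.7e-06). EPAS1, which encodes HIF-2 alpha, was at 52.6 FPKM in treated and 52.6 FPKM in untreated T24, and at 37.5 FPKM in treated and 39.3 FPKM in untreated 5637 and was called higher in T24 by 0.44 (limma adjusted p = 0.00113). HIF1AN, the asparaginyl hydroxylase of HIF, was called higher in T24 by 0.52 and EGLN2 lower, with a limma coefficient of -0.45. ARNT2, a partner of HIF, was at 0.612 FPKM in treated and 0.470 FPKM in untreated T24, and at 1.57 FPKM in treated and 1.20 FPKM in untreated 5637, and entered the fit only through 5637. Of the 24 further HIF targets tested, limma called 9 higher in T24 and 11 lower, against 35.1% and 33.9% of all genes. Without ANGPTL4 and PPP1R3C, which entered only through T24, these were 7 and 11 of 22, against 65.2% of genes called in either direction.

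Limma coefficients of named genes among these further HIF targets stand in brackets. The lysyl hydroxylase PLOD2 (2.58), the glycogen branching enzyme GBE1 (1.62) and the lysyl oxidase LOXL2 (1.54) were called higher in T24, and HILPDA, a lipid droplet protein, lower (-1.07). ANGPTL4, a secreted regulator of lipoprotein lipase, was at 5.03 FPKM in treated and 4.17 FPKM in untreated T24, and at 0.754 FPKM in treated and 0.598 FPKM in untreated 5637. Among the 19 further glycolysis and pyruvate genes tested, 5 were called higher in T24 and 9 lower. HKDC1, SLC2A12 and SLC16A7 entered only through 5637 and stayed at 0.521 FPKM or below in T24. Without them, 5 were called higher and 6 lower of 16, 68.8%, close to the 65.2% of all such genes. They included PCK2 (1.21) and ENO3 (1.09) on the higher side and SLC16A1 (-0.97) on the lower side. SLC16A1 (MCT1), a further lactate carrier, was at 20.1 FPKM in treated and 20.8 FPKM in untreated T24, and at 41.8 FPKM in treated and 40.2 FPKM in untreated 5637.

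Several of these genes have near-identical copies or overlapping neighbours, and the counting could divide reads among them. Of the 35 genes, 9 share exons with another annotated gene on the same strand and 14 more only with one on the opposite strand. GAPDH has 62 annotated pseudogenes in the table, which together held 0.0759% or less of the summed FPKM of gene and pseudogenes in any library. PGAM1 has 13, holding up to 1.51%. BNIP3 has 39, which held 1.33% in treated and 4.97% in untreated T24, and 9.98% in treated and 17.5% in untreated 5637. With these added, the share of BNIP3 in untreated 5637 was 23.7% of the pair. On the same strand, the gene ENSG00000285043, which overlaps ALDOA, was at 6.45 to 11.6 FPKM.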

How the data were processed

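The authors deposited gene-level FPKM for 4 libraries, with no read totals. The submitters' processing notes name Trimmomatic, HISAT2, StringTie and the build GRCh38. Tool versions and the annotation used were not given in the sources used here. Per the labels' protocols, TruSeq RNA v2 libraries were read as pairs of 150 bases. Where transcripts overlap, StringTie assigns reads by estimation. A table of gene names gave symbols for 60596 of 60617 IDs, and GENCODE 29 with bedtools 2.31.1 gave positions and exon overlaps. Values were analysed as log2(FPKM + 1) in Python 3.11.15 and limma 3.58.1 (R 4.3.3, trended prior variance). Within a line, a gene was compared if either library had 1 FPKM. The limma fit took the 12893 genes with 1 FPKM in 2 libraries or more, with Benjamini-Hochberg adjustment over all of them, and was tested on simulated data. The worth of 1 read was read from the spacing of low values of genes with 1 transcript. The deposited FPKM are not counts, so no count test was run. The 35 genes, their groups and the other lists were chosen with earlier results of these data known. All 35 were named. Of the other lists, up to 6 genes with the largest called line coefficient were named, except 1 that is not reported here. Alternatives changed the pseudocount, the filter, the scaling, the genes kept, the model terms and the prior.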

Additional observations from a re-analysis of the deposited data

How the results depend on the processing

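No call for treatment among the 35 genes arose in any of the 10 alternative fits, and limma called 2 genes in all with a pseudocount of 0.1 and 2 without genes sharing exons on the same strand. Genes of the 35 that differed by 0.5 or more with treatment numbered 1 in T24 and 1 in 5637 with a pseudocount of 0.1, and 1 in T24 with TPM scaling. Medians of the enzymes and of the HIF targets moved by less than 0.1 in every setting, and that of the enzymes in 5637 was 0.022 without genes sharing exons. With no filter on low values, 12 genes of the 35 were called higher in T24 in place of 20. Over all genes, 3862 of 27829 were then called higher, in place of 4521 of 12893. Other settings gave 14 to 22 higher and 4 to 6 lower, 14 of them from the 24 genes left without exon sharing. Over all genes, these settings called 3371 of 9046 (filter at 5 FPKM) to 5497 of 15227 (TPM scaling) higher, and 3066 to 4519 lower. The cell line term pairs the treated and untreated library of a line. Without this term, limma gave 9 genes at an unadjusted p below 0.05 for treatment in place of 1227. With the treatment term left out instead, the T24 minus 5637 calls among the 35 were 19 higher and 6 lower. Over all 12893 genes they were 4226 and 4150. ANKRD37 reversed between the lines with quantile scaling (0.069), LDHB in untreated libraries only (0.041) and HK2 in treated libraries only (-0.045). None of these 3 was called. Within T24, ENO1 was at 0.13 with quantile scaling. The causes were not tested. With 1 library a group, leaving out a library leaves no residual degree of freedom. Values below 1 FPKM among the 35 genes rest on about 15 reads, for SLC2A3 in treated 5637, to about 134, for EGLN3 in treated 5637.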
